A study of Oryza sativa with 12 samples.

Results

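The cellulose synthase-like (CSL) genes of rice are described here in the abscission zone, the tissue at the base of the spikelet in which grain detachment takes place. The 33 genes were taken as a fixed list of locus IDs from 6 families, with 8 CSLF, 3 CSLH, 5 CSLD, 2 CSLE, 6 CSLC and 9 CSLA genes. The rule uses no measured value, but the list was drawn up with earlier results of these data known. They are 33 of the 55986 IDs in the table of the ossh1 mutant, and 12 of them are among the 11688 distinct IDs in the table of the oscct mutant. RNA was sequenced on the day of flowering in 4 groups of 3 libraries, each library from a pool of 5 plants. The groups were ossh1 and WT in one table, and oscct and CK in the other. WT and CK are both labelled wild type, and the ossh1 and oscct groups are labelled mutant, with the design text naming the mutants sh1 and oscct22. The variety, the alleles and the number of independent lines were not given in the sources used here. All plants grew in the field, in Beijing or Sanya, and no library is tied to a place, so place and line background cannot be told apart from the mutations.

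CSL proteins are membrane glycosyltransferases related to cellulose synthase that make polysaccharide backbones of the plant cell wall. CSLF and CSLH proteins make mixed-linkage beta-glucan, a polymer typical of grass walls, with a CSLF gene as the main source in cereals. CSLA proteins make mannan and glucomannan backbones, and CSLC proteins make the glucan backbone of xyloglucan. CSLD proteins resemble cellulose synthases most closely and are best known from tip-growing cells such as root hairs, and the product of CSLE proteins is not established. The label of hemicellulose synthesis therefore describes CSLF, CSLH, CSLA and CSLC better than CSLD and CSLE. The files give IDs without gene names, and the reference table held none of the 33 IDs, so the genes are called by ID and family. That table names 26 rice genes of these families, and 25 of them lie on a chromosome on which the family has as many IDs in the list. A reference CSLE gene on chromosome 2 has no counterpart in the list.

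The WT libraries held 30382846 to 32055561 counts and the ossh1 libraries 27044341 to 28600944, while the oscct table lists only part of each library. Levels in the ossh1 table are given as counts and as CPM, counts scaled to a common library size, with TMM scaling. CPM is not corrected for gene length, which is not available here for these IDs, so levels are compared between groups for one gene and not between genes. The state of the targeted genes and of tissue markers was not checked, because the IDs carry no names. In whole tissue, fewer cells of a type and less RNA per cell cannot be told apart.

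In ossh1, 22 of the 33 genes had enough counts to be tested, and lower levels were more frequent than higher ones. Of these 22, 13 were lower in ossh1 than in WT, 3 were higher and 6 did not pass the test (edgeR's quasi-likelihood test, adjusted p of 0.05 over all 22669 genes tested). The lower genes were 59.1% of those tested, and over all genes tested 29.1% were lower. The higher genes were 13.6%, beside 29.2% of all genes, and calls in either direction were 72.7%, beside 58.3%. The shares over all genes, 29.1% lower and 29.2% higher, stand beside each family count below as well. A fall of at least 1.5-fold was found for 7 genes (31.8%, beside 12.1% of all genes), and a rise of at least 1.5-fold for 2 genes (9.09%, beside 13.7%). Among these are the fall of LOC_Os06g42020 and the rise of LOC_Os10g42750, which are also among the 13 and the 3. The low-count filter asked for 0.339 CPM in at least 3 libraries, whichever group they belonged to. LOC_Os06g42020 reached it in 3 WT libraries and 1 ossh1 library, and LOC_Os10g42750 in 1 WT library and 3 ossh1 libraries. Their low groups would not have passed the filter alone, so these calls rest on the high groups and do not stand as support for a difference. Without a low-count filter both calls remained (adjusted p = 0.025 for LOC_Os06g42020 and 0.0199 for LOC_Os10g42750, edgeR). With a mean of at least 1 CPM asked for, neither gene was tested. The median log2 fold change was -0.37 over the 22 genes and -0.01 over all tested genes. The 3 ossh1 libraries did not overlap with the 3 WT libraries for 16 of the 22 genes (72.7%, beside 62.3% of all genes). The p-values set the groups against the spread among pools of plants, and no count here is one of genes changed by the mutation alone.

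**Figure D1:**
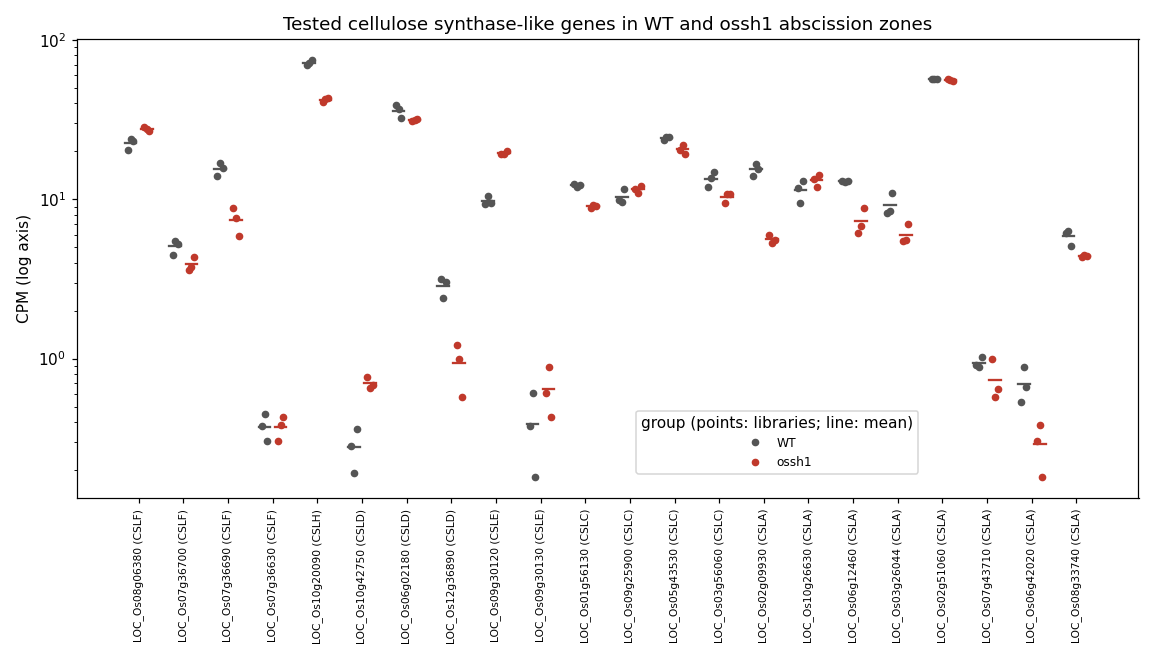
CPM on a log axis for the 22 tested genes, with 1 point per library and a line at the mean of each group of 3 (grey WT, red ossh1). LOC_Os12g36890 and LOC_Os02g09930 show the widest gaps downward and LOC_Os09g30120 a clear gap upward, from 9.76 to 19.5 CPM, and heights of different genes are not comparable because CPM is not corrected for length.

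Among the 8 CSLF genes, the mixed-linkage glucan family, 2 fell, 1 rose, 1 did not pass the test and 4 were not tested. LOC_Os07g36690 on chromosome 7 had 447, 528 and 518 counts in WT and 231, 199 and 164 in ossh1. Every ossh1 library was below every WT library. Its level fell from 15.5 ± 1.44 CPM to 7.46 ± 1.48 CPM (SD, n = 3), and the log2 fold change was -1.06 (standard error 0.11, adjusted p = 4.73e-11, edgeR). LOC_Os08g06380 on chromosome 8 went the other way, with 651, 751 and 771 counts in WT and 742, 715 and 747 in the shallower ossh1 libraries. After scaling it rose from 22.5 ± 1.92 CPM to 27.6 ± 0.759 CPM (SD, n = 3), with no overlap between the groups. The log2 fold change was 0.29 (standard error 0.07, adjusted p = 0.000426, edgeR), a rise of 1.22-fold.

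The neighbouring LOC_Os07g36700 had 144, 173 and 174 counts in WT and 94, 98 and 121 in ossh1. Its log2 fold change was -0.38 (standard error 0.15, adjusted p = 0.0281, edgeR), smaller than that of LOC_Os07g36690. This call was lost with DESeq2 and on leaving out WT replicate 2, WT replicate 3, ossh1 replicate 1 or ossh1 replicate 2, and its adjusted p ran from 0.00588 to 0.114 over the alternatives. LOC_Os07g36630 had 10 to 14 counts in WT and 8 to 12 in ossh1, and its change was 0.00 on the log2 scale, with a 95% interval from -0.95 to 0.96. At this depth, changes of nearly 2-fold in either direction could not be seen for that gene. The other CSLF genes had few counts: LOC_Os07g36610 had 4, 9 and 0 in WT and 8, 11 and 2 in ossh1, LOC_Os07g36740 at most 4, LOC_Os07g36750 at most 1, and LOC_Os10g20260 had 0 in WT and 8, 0 and 2 in ossh1.

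Of the 3 CSLH genes, 1 had substantial counts. LOC_Os10g20090 on chromosome 10 had 2245, 2239 and 2487 counts in WT and 1069, 1105 and 1202 in ossh1. It fell from 72.2 ± 2.64 CPM to 42.2 ± 1.2 CPM (SD, n = 3), and the groups stood far apart relative to their spread. The log2 fold change was -0.78 (standard error 0.05, adjusted p = 1.54e-17, edgeR), a fall of 1.71-fold. LOC_Os04g35020 had at most 2 counts in any library. LOC_Os04g35030 had 0 counts in all 6 libraries, which allows up to 0.115 CPM per library at a limit of 3 counts, a limit for counting error only.

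Of the 5 CSLD genes, 3 were tested, and 2 of these were lower in ossh1 and 1 was higher. LOC_Os12g36890 on chromosome 12 had 101, 75 and 100 counts in WT and 32, 26 and 16 in ossh1. It fell from 2.86 ± 0.409 CPM to 0.933 ± 0.329 CPM (SD, n = 3), a 3.07-fold change, the largest fall among the tested CSL genes. The log2 fold change was -1.62 (standard error 0.26, adjusted p = 7.04e-07, edgeR). LOC_Os06g02180 had 1252, 1155 and 1066 counts in WT and 806, 820 and 885 in ossh1, and fell by a log2 fold change of -0.20 (standard error 0.06, adjusted p = 0.00697, edgeR). Without WT replicate 1, the highest WT library, that small fall did not pass the test, and its adjusted p ran from 9.80e-05 to 0.103 over the alternatives.

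LOC_Os10g42750, also a CSLD gene, rose from 9, 6 and 12 counts in WT to 20, 17 and 19 in ossh1. Its log2 fold change was 1.31 (standard error 0.44, adjusted p = 0.0105, edgeR), on counts of at most 20 in any library. It passed the low-count filter through its ossh1 libraries, since 1 of its WT libraries reached the minimum of 0.339 CPM. Without WT replicate 2 the call was lost, and the adjusted p ran from 0.00939 to 0.0583 over the alternatives. LOC_Os08g25710 and LOC_Os06g22980 had at most 2 counts in any library and were not tested.

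The CSLE pair lies side by side on chromosome 9. LOC_Os09g30120 had 299, 329 and 313 counts in WT and 500, 502 and 555 in ossh1, the clearest rise among the CSL genes. It went from 9.76 ± 0.627 CPM to 19.5 ± 0.443 CPM (SD, n = 3), with every ossh1 library above every WT library. The log2 fold change was 0.996 (standard error 0.09, adjusted p = 2.98e-13, edgeR). LOC_Os09g30130, its neighbour, had 12, 19 and 6 counts in WT and 16, 23 and 12 in ossh1, and its log2 fold change of 0.73 did not pass the test (95% interval -0.19 to 1.64).

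Among the 6 CSLC genes, the family of the xyloglucan backbone, 3 fell, each by less than 1.5-fold. LOC_Os01g56130 had 398, 377 and 406 counts in WT and 231, 238 and 254 in ossh1, a log2 fold change of -0.44 (standard error 0.10, adjusted p = 0.000155, edgeR). LOC_Os03g56060 had 383, 429 and 491 counts in WT and 249, 282 and 298 in ossh1, and its log2 fold change was -0.38 (standard error 0.10, adjusted p = 0.000905). LOC_Os05g43530 had 759, 774 and 815 counts in WT and 532, 573 and 537 in ossh1, and its log2 fold change was -0.24 (standard error 0.07, adjusted p = 0.00317). In all 3 genes the ossh1 libraries lay below the WT libraries after scaling. LOC_Os09g25900 had 319, 301 and 382 counts in WT and 303, 284 and 337 in ossh1, and its log2 fold change of 0.15 did not pass the test (95% interval -0.05 to 0.35). LOC_Os08g15420 was at 0 in all 6 libraries, with the same limit of up to 0.115 CPM, and LOC_Os07g03260 had 0 in WT and at most 4 counts in ossh1.

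The 9 CSLA genes, the mannan synthase family, held 5 falls and no rise among 8 tested. Over all genes tested, 29.1% were lower and 29.2% higher. The falls include LOC_Os06g42020, which passed the low-count filter through its WT libraries. LOC_Os02g09930 on chromosome 2 had 451, 525 and 512 counts in WT and 156, 138 and 154 in ossh1. It fell from 15.4 ± 1.32 CPM to 5.6 ± 0.335 CPM (SD, n = 3), a 2.75-fold change. The log2 fold change was -1.46 (standard error 0.11, adjusted p = 1.03e-15, edgeR). LOC_Os06g12460 on chromosome 6 had 417, 406 and 429 counts in WT and 160, 177 and 247 in ossh1, and fell from 13 ± 0.0469 CPM to 7.27 ± 1.44 CPM (SD, n = 3). The ossh1 libraries spread more widely than the WT libraries but stayed below them, with a log2 fold change of -0.83 (standard error 0.11, adjusted p = 1.83e-08, edgeR). LOC_Os03g26044 on chromosome 3 had 263, 267 and 363 counts in WT and 143, 144 and 194 in ossh1, a log2 fold change of -0.62 (standard error 0.13, adjusted p = 5.17e-05, edgeR). In both groups its replicate 3 was the highest library.

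Smaller or less certain falls were seen in a further pair of CSLA genes. LOC_Os06g42020 had 17, 28 and 22 counts in WT and 8, 10 and 5 in ossh1, and its log2 fold change was -1.26 (standard error 0.45, adjusted p = 0.0159, edgeR). This call was lost with DESeq2, without WT replicate 2 and without ossh1 replicate 3; it passed the low-count filter through its WT libraries, and the adjusted p ran from 0.00903 to 0.0949 over the alternatives. LOC_Os08g33740 had 196, 199 and 169 counts in WT and 113, 116 and 123 in ossh1, and its log2 fold change was -0.41 (standard error 0.14, adjusted p = 0.0112, edgeR), a call lost without WT replicate 2 (adjusted p from 0.00179 to 0.0613 over the alternatives). The remaining CSLA genes gave no call. LOC_Os02g51060 had 1834, 1775 and 1885 counts in WT and 1491, 1451 and 1541 in ossh1, which after scaling were 56.9 ± 0.374 and 56.1 ± 0.84 CPM (SD, n = 3). Its log2 fold change of -0.02 had a 95% interval from -0.12 to 0.07, the narrowest among the 6 genes without a call. With library totals in place of TMM it was -0.12 and passed the test, with an adjusted p from 0.0297 to 0.827 over the alternatives.

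LOC_Os10g26630 had 375, 299 and 430 counts in WT and 351, 310 and 393 in ossh1, a log2 fold change of 0.20 with an interval from -0.00 to 0.41. That value passed the test only when WT replicate 3 or ossh1 replicate 2 was left out (adjusted p from 0.0201 to 0.493 over the alternatives). LOC_Os07g43710 had 28 to 34 counts in WT and 15 to 26 in ossh1, a log2 fold change of -0.35 with an interval from -1.05 to 0.35. LOC_Os03g07350 had 8, 8 and 19 counts in WT and 1, 11 and 6 in ossh1 and was not tested.

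**Figure D2:**
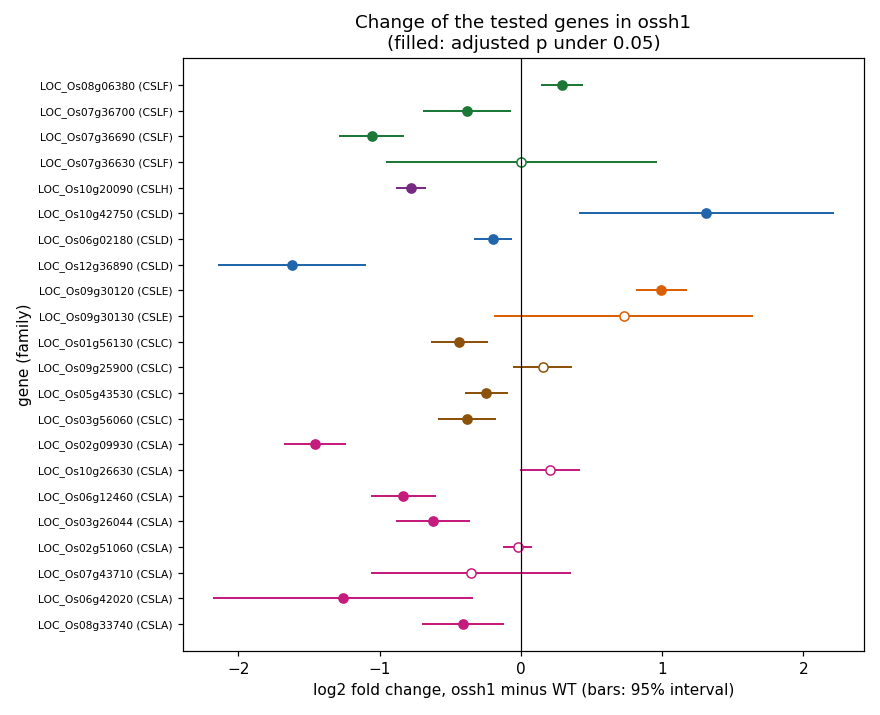
Log2 fold change of the 22 tested genes in ossh1 against WT, coloured by family, with bars for the 95% interval and filled points for an adjusted p under 0.05. The 13 filled points left of 0 run from -0.20 to -1.62 and the 3 to the right from 0.29 to 1.31, and the widest bars belong to genes with few counts.

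The CPM were also summed over each family. The CSLH sum was 72.2 ± 2.63 CPM in WT and 42.2 ± 1.24 CPM in ossh1 (n = 3, SD), a ratio of 0.585, carried by LOC_Os10g20090. The CSLA sum was 114 ± 2.54 CPM in WT and 93.7 ± 2.63 CPM in ossh1, a ratio of 0.823, and the CSLC ratio was 0.853. The CSLE sum was 10.2 ± 0.813 CPM in WT and 20.1 ± 0.336 CPM in ossh1, a ratio of 1.98. In CSLF the rise of LOC_Os08g06380 and the fall of LOC_Os07g36690 lay side by side, and the sum was 43.7 ± 3.96 CPM in WT and 39.8 ± 2.02 CPM in ossh1, with overlapping libraries. The CSLD sum was 39.2 ± 3.46 and 33.1 ± 0.214 CPM, without overlap. These sums are descriptions and were not tested.

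**Figure D3:**
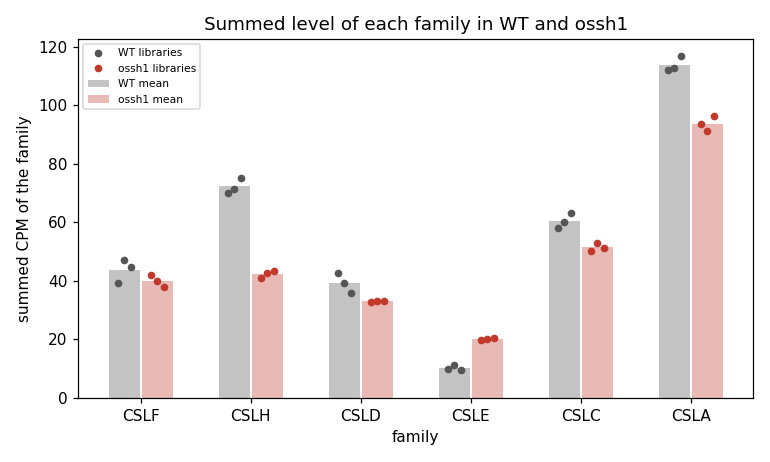
Summed CPM of each family, with bars for the mean of 3 libraries and points for single libraries (grey WT, red ossh1). The CSLH sum is lower and the CSLE sum higher in all 3 ossh1 libraries, while the CSLF points overlap, and bars of different families are not comparable because CPM is not corrected for length.

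Several CSL genes sit close to each other by serial number in their locus IDs, which follow gene order by the naming convention. On chromosome 7 there are 6 CSLF genes between serial numbers 36610 and 36750, of which 3 were tested and 2 were lower in ossh1. Among 11 other tested genes that lie between them or are the 5 nearest on either side, 6 were higher, 2 lower and 3 without a call, with log2 fold changes from -0.49 to 3.17. The gene next to the run, LOC_Os07g36760, had 2, 7 and 2 counts in WT and 40, 22 and 23 in ossh1, a log2 fold change of 3.17 (adjusted p = 1.04e-06, edgeR). On chromosome 9, the neighbours of the CSLE pair were 2 higher, 5 lower and 3 without a call, beside the rise of LOC_Os09g30120. On chromosome 10, LOC_Os10g20090 fell, and of 14 neighbours 6 were higher, 2 were lower and 6 had no call. Over all genes tested in ossh1, 29.2% were higher and 29.1% lower, so mixed directions among neighbours set no member apart. Near-identical copies can share reads, and how the authors' counting treated shared reads was not given in the sources used here, so single members of these runs are uncertain to that extent.

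For oscct, the deposited table holds estimated counts and appears to list only rows that differ between oscct and CK. The 3193 rows averaging 1000 counts or more leave an empty stretch, 0.14 log2 units wide and near 0, in their differences between oscct and CK. Of 11518 IDs tested in it, 99.2% passed the test, so a call on a listed gene adds nothing to its listing, and an ID that is absent is simply not listed. The 12 listed CSL genes were 3 CSLF, 1 CSLH, 1 CSLD, 1 CSLE, 3 CSLC and 3 CSLA genes, and 9 of them were lower in oscct and 3 higher. Lower genes were 75% of the 12, beside 50.3% of all tested IDs, and higher genes were 25%, beside 48.9%. Among the 12, the low groups of LOC_Os07g36690, LOC_Os08g06380 and LOC_Os07g36610 did not reach the filter's minimum, about 10 counts, in every library. These genes passed the filter through their high groups, so their calls do not stand as support for a difference. The libraries of oscct and CK did not overlap for 12 of 12, beside 98.3% of all. The median log2 fold change was -0.54 over the 12 genes and -0.09 over all tested IDs. With library totals in place of TMM, the latter median moved to 0.08, a shift of the scaling that every gene of that table shares. The adjusted p-values below are edgeR's over all IDs tested in that table and describe rows that were selected for a difference.

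Mixed-linkage glucan genes again moved in both directions. LOC_Os07g36690 had 12, 10.89 and 7 estimated counts in CK and 34, 46 and 31 in oscct, all oscct libraries above all CK libraries. Its log2 fold change was 1.76 (standard error 0.28, adjusted p = 2.21e-05, edgeR). The gene had 447, 528 and 518 counts in WT, far above this row in CK. Its value in CK replicate 2 was not whole, and whether the row holds all of the gene's reads is not stated. LOC_Os07g36610 had 17, 21 and 15 estimated counts in CK and 3, 7 and 5 in oscct, a log2 fold change of -1.91 (standard error 0.37, adjusted p = 0.000149). All of its oscct libraries were under the filter's minimum of about 10 counts, so it was tested through CK, where it was high. With a mean of at least 1 CPM asked for, it was not tested. LOC_Os08g06380 was listed with 0, 7.79 and 0 estimated counts in CK and 19.91, 39.98 and 30.92 in oscct. Its values were not whole in 4 of 6 libraries, and whether the row holds all of the gene's reads is not stated. In WT the gene had 651, 751 and 771 counts, far above this row in CK. The change of the row may therefore not be that of the whole gene. The fitted log2 fold change was 3.34 (standard error 0.60, adjusted p = 6.93e-05, edgeR). It rested on CK replicate 2: without that library the remaining CK values were 0 and the fitted value, which is then no bound, was 7.89.

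The CSLH gene LOC_Os10g20090 was listed in 2 rows, which summed to 4396, 4405 and 4280 estimated counts in CK and 3264, 3310 and 3237 in oscct. The smaller row held 11% to 13.4% of the sum in CK and 8.83% to 11.9% in oscct, and both rows were lower in every oscct library. The summed gene had a log2 fold change of -0.53 (standard error 0.03, adjusted p = 1.65e-10, edgeR). The CSLE gene LOC_Os09g30120 had 1252.93, 1197.41 and 1233.06 estimated counts in CK and 777.2, 751.87 and 682.66 in oscct. It was lower by a log2 fold change of -0.85 (standard error 0.05, adjusted p = 2.32e-10, edgeR). The values of LOC_Os09g30120 and of both LOC_Os10g20090 rows were whole in 0 of 6 libraries. Whether these rows hold all reads of the genes is not stated. The CSLD gene LOC_Os06g02180 had 957, 973 and 965 counts in CK and 898, 840 and 923 in oscct, a log2 fold change of -0.23 (standard error 0.05, adjusted p = 0.000154) that did not pass the test with library totals (adjusted p from 2.69e-05 to 0.197 over the alternatives).

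All 3 listed CSLC genes were lower in oscct. LOC_Os03g56060 had 367, 388 and 361 counts in CK and 253, 230 and 226 in oscct, a log2 fold change of -0.77 (standard error 0.08, adjusted p = 1.31e-07, edgeR). LOC_Os05g43530 had 109, 108 and 117 counts in CK and 77, 77 and 91 in oscct, and its log2 fold change was -0.56 (standard error 0.12). LOC_Os01g56130 had 279, 271 and 278 counts in CK and 230, 229 and 231 in oscct, and its log2 fold change was -0.37 (standard error 0.07). In the CSLA family, LOC_Os03g26044 had 831, 867 and 897 counts in CK and 439, 463 and 457 in oscct, a log2 fold change of -1.04 (standard error 0.05, adjusted p = 1.73e-11, edgeR). LOC_Os07g43710 had 77, 77 and 64 counts in CK and 60, 42 and 42 in oscct, and its log2 fold change was -0.71 (standard error 0.17). LOC_Os06g12460 went up, from 44, 45 and 54 in CK to 116, 126 and 110 in oscct, and its log2 fold change was 1.19 (standard error 0.14, adjusted p = 5.73e-07, edgeR).

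**Figure D4:**
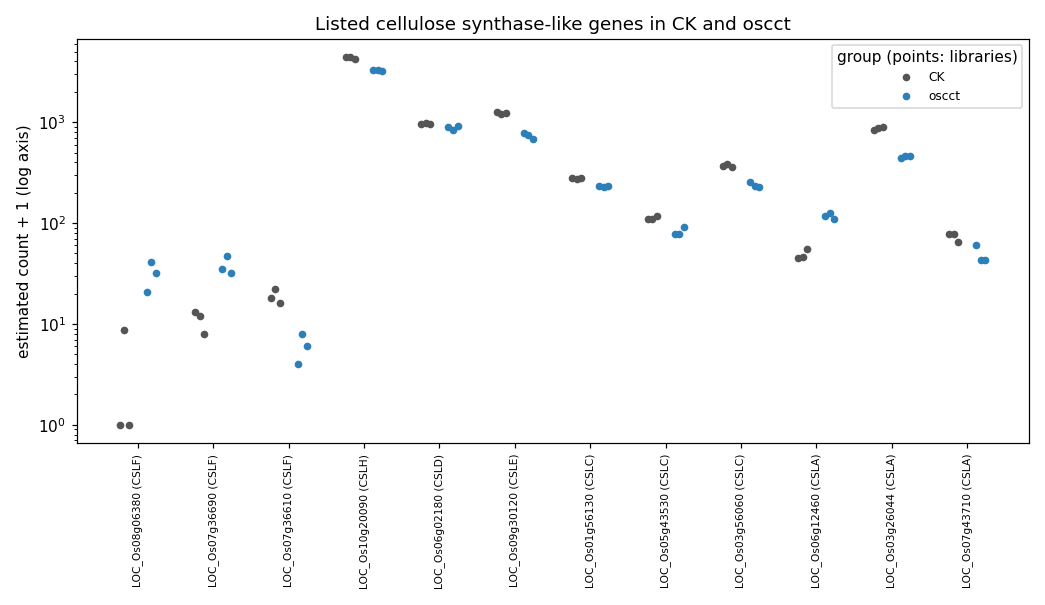
Estimated count plus 1, on a log axis, for the 12 listed genes, with 1 point per library (grey CK, blue oscct). In every gene the points of the groups are apart, with LOC_Os08g06380, LOC_Os07g36690 and LOC_Os06g12460 higher in oscct and the other 9 genes lower.

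The change in oscct was set against the change in ossh1 in one model of all 12 libraries, with no control library in common. The change differed for 9 of 12 CSL genes at an adjusted p of 0.05 over 11654 IDs, which is 75%, beside 80.3% of all IDs in that test. IDs entered it only when listed for oscct, so these shares are not ones of all genes and the p-values have no usual meaning. The tables were normalised separately, and only changes within a table are compared.

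A group of 3 genes passed its own test in each mutant and moved in opposite directions. For LOC_Os07g36690, the oscct call passed the low-count filter through its oscct libraries, since CK replicate 3, at 7 estimated counts, was under the minimum. That call does not stand as support for a difference. LOC_Os07g36690 (CSLF) had a log2 fold change of -1.06 in ossh1 and 1.76 in oscct, and these differed by 2.83 (standard error 0.34, adjusted p = 5.68e-08, edgeR). LOC_Os06g12460 (CSLA) had -0.83 in ossh1 and 1.19 in oscct, differing by 2.02 (standard error 0.20, adjusted p = 1.11e-09). LOC_Os09g30120 (CSLE) had 0.996 in ossh1 and -0.85 in oscct, differing by -1.84 (standard error 0.09, adjusted p = 1.56e-15). These 3 are part of 11 genes tested in both comparisons, and among all 10734 such IDs 42.3% passed both tests in opposite directions. All 3 differences kept their direction and passed the threshold under every alternative that was run. The controls of these genes were not alike in level. LOC_Os07g36690 had 447 to 528 counts in WT and 7 to 12 estimated counts in CK. LOC_Os06g12460 had 406 to 429 and 44 to 54, and LOC_Os09g30120 had 299 to 329 and 1197 to 1253. The WT libraries held 30382846 to 32055561 counts, and the listed CK rows summed to 12943437 to 13318397. The cause of these unlike levels was not tested.

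Genes lower in both mutants numbered 6 of the 11, beside 13.6% of all IDs tested in both. They were LOC_Os10g20090 (CSLH), LOC_Os06g02180 (CSLD), LOC_Os03g26044 (CSLA) and the 3 CSLC genes LOC_Os01g56130, LOC_Os05g43530 and LOC_Os03g56060. The CSLH gene fell by 0.78 in ossh1 and by 0.53 in oscct on the log2 scale, with a difference of 0.25 (standard error 0.05, adjusted p = 0.000172, edgeR). LOC_Os03g26044 fell by 0.62 and by 1.04, with a difference of -0.42 (standard error 0.14, adjusted p = 0.0078). That difference did not pass the test with library totals or without ossh1 replicate 3, where it was -0.30, and its adjusted p ran from 0.000314 to 0.302 over the alternatives. LOC_Os03g56060 differed by -0.38 (standard error 0.13, adjusted p = 0.00937), a call lost with library totals (adjusted p from 0.00308 to 0.407).

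For LOC_Os05g43530 the difference was -0.31 (standard error 0.14, adjusted p = 0.0422, edgeR), and it did not pass under 12 of 20 alternatives, among them the threshold of 0.01 and the omission of WT replicate 1, ossh1 replicate 2, any CK library, oscct replicate 1 or oscct replicate 2 (adjusted p from 0.0208 to 0.764). The changes of LOC_Os01g56130 and LOC_Os06g02180 did not differ past the threshold, with 95% intervals of the difference from -0.17 to 0.29 and from -0.21 to 0.14. With library totals both differences passed, at 0.33 and 0.23, with adjusted p-values over the alternatives from 0.0103 to 0.912 and from 0.0155 to 0.9998. LOC_Os07g43710 was lower in oscct, at -0.71, and had -0.35 without a call in ossh1, and the difference of -0.36 did not pass (95% interval -1.06 to 0.34).

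The remaining CSLF genes in this test rest on few counts in one table. LOC_Os08g06380 was higher by 0.29 in ossh1, and its listed row by 3.34 in oscct, differing by 3.07 (standard error 0.56, adjusted p = 2.16e-05, edgeR). The oscct side is a row with fractional values, as for 4 of the 12 listed genes, and without CK replicate 2 the fitted difference was 8.36. LOC_Os07g36610 differed by -2.85 (standard error 0.88, adjusted p = 0.00485), with at most 11 counts in WT or ossh1, and the value was -3.91 without WT replicate 2 and -2.26 without WT replicate 3. Its oscct libraries, at 3, 7 and 5 estimated counts, were under the filter's minimum in the oscct comparison.

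**Figure D5:**
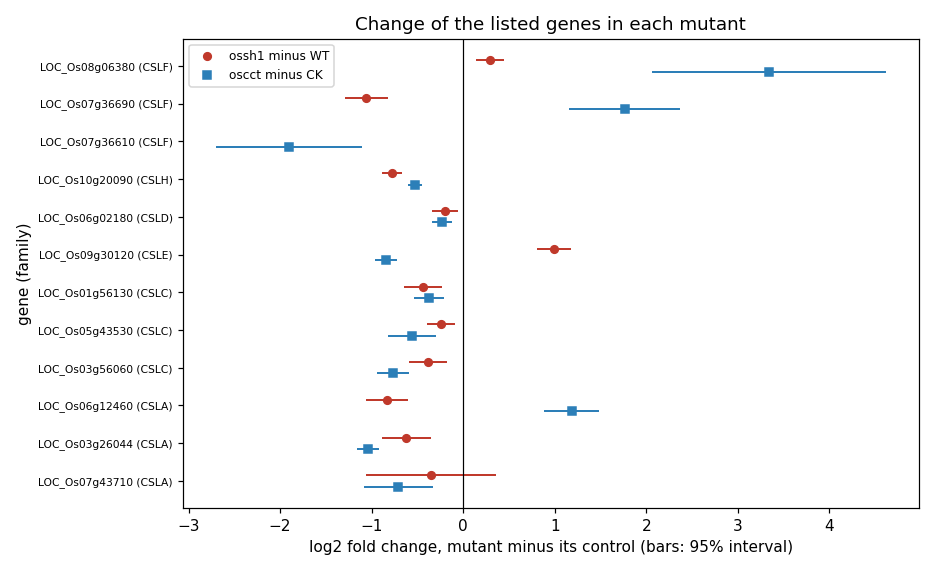
Log2 fold change of the 12 listed genes in ossh1 against WT (red circles) and in oscct against CK (blue squares), with bars for the 95% interval. LOC_Os07g36690, LOC_Os06g12460 and LOC_Os09g30120 have the symbols on opposite sides of 0, 6 genes have both symbols on the left with both calls, and LOC_Os07g36610 has no ossh1 symbol because it was not tested there.

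Of the 16 CSL genes called in ossh1, 6 were not listed for oscct. They include the largest falls in ossh1, LOC_Os12g36890 (CSLD) at -1.62 and LOC_Os02g09930 (CSLA) at -1.46, and also LOC_Os10g42750, LOC_Os07g36700, LOC_Os06g42020 and LOC_Os08g33740. Whether their changes differ between the mutants was not tested, since their oscct values were not analysed here.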

How the data were processed

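RNA sequencing libraries from 4 groups of 3 pools were analysed from 2 deposited tables. Per the submitters' processing notes, the tools included HISAT2, DESeq2 and RSEM 1.3.1, and the genome build was IRGSP-1.0, without further detail. The sources used here do not state whether counting was strand-specific. The ossh1 table was deposited as whole read counts (per the file headers), and the oscct table as estimated counts with 58.5% whole values (no tolerance), listing 13301 rows for 11688 IDs. Rows of 1 ID were summed and then rounded.

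Mutant and control of a table were compared with edgeR 4.0.16 under R 4.3.3, using filterByExpr, TMM, glmQLFTest and Benjamini-Hochberg adjustment over the whole table. SE was the absolute log2 fold change over the square root of F. The difference between mutants was a contrast of all 12 libraries, with scaling factors from each table. Alternatives were RLE, library totals, other filters, DESeq2 1.42.0, limma-voom (limma 3.58.1), a replicate block, a threshold of 0.01, a joint fit, left-out libraries and other treatments of the oscct rows. Procedures were tested on simulated data. Replicates of a group differed by more than sampling noise (chi-square per degree of freedom 1.71 to 4.46). All 33 genes were accounted for, with full values per library for those called at 1.5-fold or more in ossh1 or listed for oscct by the rule for named genes. Values of the other genes were added after they had been seen. The genes, families and lists were chosen with earlier results of these data known. Family borders within the given list were set from general knowledge and checked against the chromosomes of named genes in the RefSeq-derived table. Lists of cellulose synthase and xylan genes were left out because no source here names their IDs. Figures were drawn with matplotlib 3.10.9.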

Additional observations from a re-analysis of the deposited data

Results flagged for a closer look

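The change differed between oscct and ossh1, by the test of the difference itself in one edgeR model, for 9 genes. The difference, as oscct minus ossh1 on the log2 scale, was 3.07 for LOC_Os08g06380, 2.83 for LOC_Os07g36690 and -2.85 for LOC_Os07g36610 among the CSLF genes. It was 2.02 for LOC_Os06g12460 and -0.42 for LOC_Os03g26044 in CSLA, and -1.84 for LOC_Os09g30120 in CSLE. It was 0.25 for LOC_Os10g20090 in CSLH, and in CSLC -0.31 for LOC_Os05g43530 and -0.38 for LOC_Os03g56060. All of these IDs were listed for a difference in oscct, so the p-values have no usual meaning, and 80.3% of all IDs in the test differed. In the oscct comparison, the low groups of LOC_Os08g06380, LOC_Os07g36690 and LOC_Os07g36610 did not reach the filter's minimum in every library.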

How the results depend on the processing

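The count of genes lower in ossh1 was 13 and fell to 8 in the fit of all 12 libraries, which holds only IDs of both tables. Leaving out 1 library gave 10 to 12 lower and 2 to 4 higher genes in ossh1, 9 lower and 3 higher in oscct, and 8 to 9 differences between mutants. Other settings gave 8 to 14 lower and 2 to 4 higher genes in ossh1, 8 to 9 lower and 3 higher in oscct, and 8 to 9 differences. LOC_Os07g36630 had no call and changed sign in ossh1 with library totals (-0.091) and without WT replicate 3, ossh1 replicate 2 or ossh1 replicate 3, and ran from -0.13 to 0.14 with 1 library left out. The difference of LOC_Os06g02180 changed sign with library totals (0.23) and without WT replicate 3 or oscct replicate 2, and ran from -0.096 to 0.044 with 1 library left out. The cause was not tested. Same-numbered libraries did not deviate together (correlations -0.052 to 0.028), which cannot show whether they were collected as pairs. With the replicate block, 13 genes were lower and 3 higher in ossh1, 9 lower and 3 higher in oscct, and 8 differed between mutants, the difference of LOC_Os05g43530 being lost. A threshold of 0.01 also ended the ossh1 calls of LOC_Os07g36700, LOC_Os10g42750, LOC_Os06g42020 and LOC_Os08g33740. In ossh1, depth limits LOC_Os07g36630, LOC_Os10g42750, LOC_Os09g30130 and LOC_Os06g42020 most, which had fewer than 3 libraries of a group at the filter's minimum. For oscct, the same holds for LOC_Os08g06380 and LOC_Os07g36690 in CK and for LOC_Os07g36610 in oscct.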
